A study of Mus musculus with 12 samples.

Results

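The 36 genes described here encode enzymes that break down amino acids in the liver. They were taken as a list of named genes covering glyoxylate, serine and glycine, histidine, tyrosine, tryptophan, the transaminases, proline, branched-chain amino acids, sulfur amino acids and lysine, and all 36 were found by symbol among the 55471 gene IDs of the count table. Each of the 36 passed the filter on low counts that left 13866 genes for testing. RNA was sequenced from livers of C57BL/6 mice in 4 groups of 3 samples. The standard-diet group (samples 3, 4 and 5) and the group on a diet that gives MASLD (samples 3, 4 and 5) received no drug that the labels name. The other groups were fed the MASLD diet too and received Aza-TdC at a relative dose of 0.1x (samples 1, 3 and 4) or 1x (samples 2, 4 and 5). MASLD is metabolic dysfunction-associated steatotic liver disease, in which fat builds up in the liver. Aza-TdC belongs to the nucleoside analogues and lowers the amount of DNMT1, the enzyme that copies DNA methylation onto new strands, and the series asks what DNMT1 does in MASLD. The labels give neither the composition of the diet, the absolute dose, the duration, nor the sex and age of the mice, and they do not say whether samples of a group are separate animals. The p-values therefore reflect only how far these samples differ from one another, and that may include technical variation.

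Amino acids beyond the need for protein synthesis are broken down mostly in hepatocytes, the main cells of the liver. Transaminases pass the amino group to a keto acid, from where the nitrogen reaches the urea cycle, and the carbon skeletons are cut down by chains of mitochondrial and cytosolic enzymes to intermediates of glucose, ketone and energy metabolism. Several of these enzymes are known to respond to fasting, glucocorticoids and dietary protein, and inherited loss of single members causes diseases such as tyrosinaemia (FAH) and primary hyperoxaluria (AGXT).

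The members with the largest changes on the MASLD diet and an entry in the promoter table were Agxt, Got1 and Hal, and the 250 bases before their starts are shown to give the sequence next to these changes. They are from RefSeq, build GRCm38.p6, the same primary assembly as the build mm10 to which the reads were aligned. Capitals mark matches to the motifs searched. The windows are chr1:93134990-93135239 on the plus strand for Agxt, chr19:43524606-43524855 on the minus strand for Got1 and chr10:93488518-93488767 on the plus strand for Hal.
Agxt: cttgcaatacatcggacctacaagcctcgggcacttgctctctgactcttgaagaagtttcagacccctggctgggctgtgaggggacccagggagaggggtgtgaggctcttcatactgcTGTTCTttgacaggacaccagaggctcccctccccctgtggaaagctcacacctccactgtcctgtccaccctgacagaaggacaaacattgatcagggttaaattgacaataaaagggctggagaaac
Got1: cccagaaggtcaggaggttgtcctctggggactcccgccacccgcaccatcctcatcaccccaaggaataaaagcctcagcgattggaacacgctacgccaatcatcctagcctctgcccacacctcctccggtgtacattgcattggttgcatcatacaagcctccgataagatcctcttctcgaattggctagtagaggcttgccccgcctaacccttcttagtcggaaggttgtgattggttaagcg
Hal: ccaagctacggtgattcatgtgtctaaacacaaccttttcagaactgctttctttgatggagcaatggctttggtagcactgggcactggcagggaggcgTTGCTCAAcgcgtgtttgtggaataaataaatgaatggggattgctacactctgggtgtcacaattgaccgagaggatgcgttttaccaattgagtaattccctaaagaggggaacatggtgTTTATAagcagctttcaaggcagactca
The Agxt window holds 2 CpG dinucleotides and a TGTTCT, a core motif of the glucocorticoid receptor, from 129 to 124 bases before the start. In the Got1 window there are 11 CpG and no motif match. The Hal window holds 6 CpG, a TATA box on the opposite strand (TTTATA, 28 to 23 bases before the start) and a C/EBP match (TTGCTCAA, 150 to 143 bases before the start). Entries were found for 30 of the 36 members, in 33 windows of the same length. TATAAA occurred on either strand in 18.2% of these windows and in 12.4% of all 32851 promoter windows, TTGCNNAA (C/EBP) in 12.1% and 9.56%, GTTAAT (part of the HNF1 site) in 12.1% and 6.43%, and TGTTCT in 9.09% and 16.1%. CAAAGTCCA (HNF4) was found in 6.06% of the member windows, which are 2 windows of Agxt2, and in 0.384% of all windows. TGTTTAC (FOXA) and TGACGTCA (the cyclic AMP response element) were in none of the 33 and in 3.17% and 1.55% of all. The median CpG count was 6 in the members and 6 in all promoters. These letter matches are a description of the sequence, and neither DNA methylation nor factor binding was measured here.

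In the livers on standard diet the members covered a wide range of levels. All levels are CPM, a gene's counts relative to its library's total after scaling by trimmed mean of M-values (TMM), and are given with their standard deviation over 3 samples. Per kilobase of exon, the scale on which genes can be ranked, the cysteine dioxygenase gene Cdo1 (1429 CPM per kb) and Hpd (1392) stood at the top, followed by Tdo2 (458), Fah (421), Hgd (332) and Agxt (244), and Acmsd (5.85) stood at the bottom. The order changed on the MASLD diet for single members, as Agxt went from rank 6 to rank 25 of 36. Together the members summed to 17159 ± 1127 CPM on standard diet, 9926 ± 1348 on the MASLD diet, 11606 ± 289 at 0.1x and 11513 ± 367 at 1x, and took 1.47%, 1.09%, 1.16% and 1.22% of all counts. Library totals ran from 30213048 (0.1x sample 3) to 41852606 counts (1x sample 2).

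On the MASLD diet most enzymes of amino acid breakdown were lower than on standard diet. Of the 36 members 28 fell (77.8%), while 13.9% of all 13866 genes tested fell, and 1 member rose (2.78%), while 15.6% of all genes tested rose. The members' median log2 fold change was -0.72, with 34 of 36 below 0, beside a median of 0.03 over all genes. In 30 members all MASLD samples lay below all samples on standard diet, as they did in 22.8% of all genes tested, and these include all 28 that fell. The 28 that fell stood at 55.3% of their standard-diet level (median, range 9.53% to 79.0%). The tests were edgeR's quasi-likelihood F tests, with p-values adjusted by Benjamini-Hochberg over all genes tested, and a gene passed at an adjusted p under 0.05. Errors of log2 fold changes are standard errors.

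**Figure D1:**
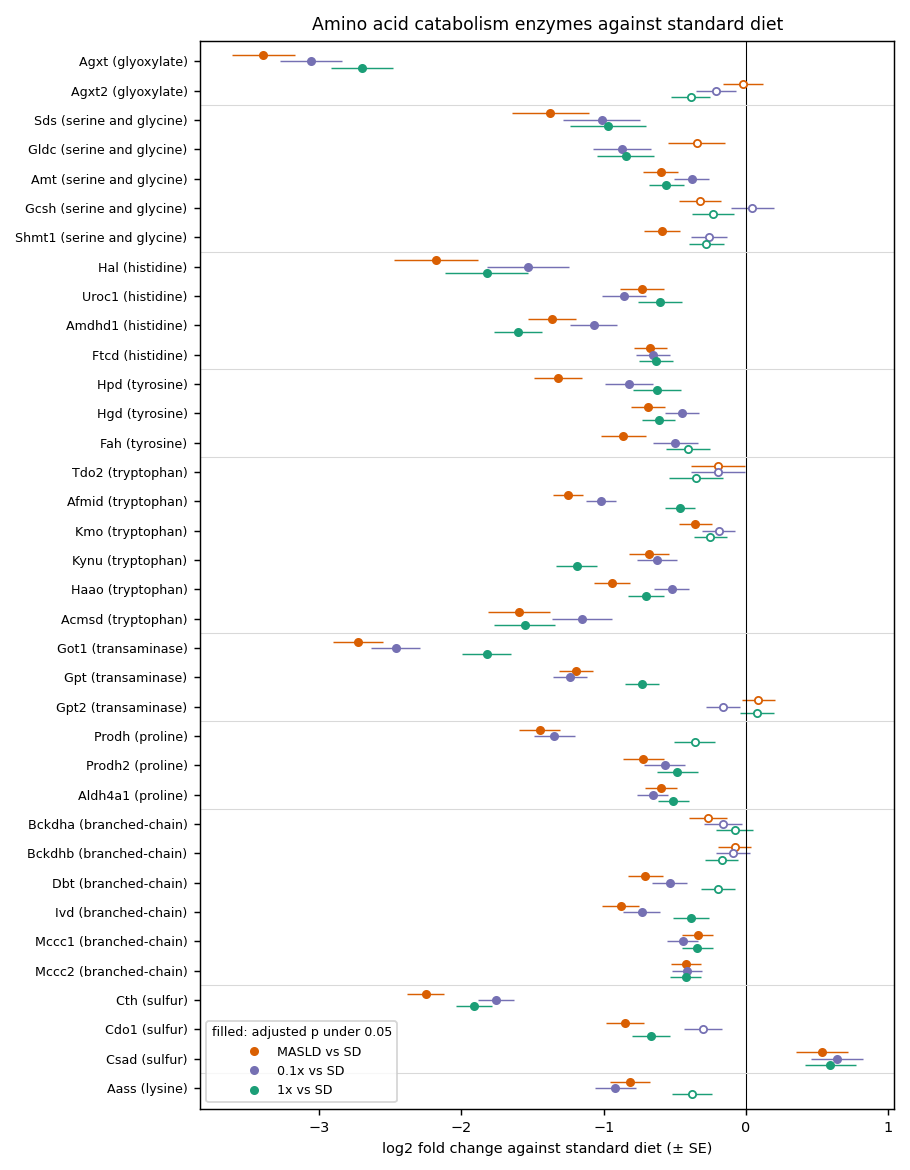
Log2 fold change against standard diet (SD on the axis) with its standard error for each of the 36 members, ordered by amino acid, in the MASLD, 0.1x and 1x groups of 3 samples, where filled points passed at an adjusted p under 0.05. Nearly all points lie left of 0, with Agxt lowest at -3.39 on the MASLD diet, and Csad stands right of 0 in all 3 groups.

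The scaling of the libraries bears on this count. With library totals alone in place of TMM the median of all genes moved by 0.36, to 0.39, and that of the members stood at -0.36, with 26 of 36 below 0. Then 20 members were lower and 2 higher, the second being Gpt2. The members that no longer passed were Amt, Shmt1, Kmo, Kynu, Aldh4a1, Dbt, Mccc1 and Mccc2. Over all genes 11.02% of the calls were lower in place of 1921 of 4085 (47.0%). The share of lower calls over all genes also moved in the comparisons with drug, from 52.4% to 19.03% for 0.1x against standard diet, from 49.8% to 10.96% for 1x against standard diet, from 53.8% to 83.7% for 0.1x against MASLD, from 52.0% to 63.5% for 1x against MASLD and from 45.1% to 26.8% for 1x against 0.1x (56.8% with upper-quartile factors).

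Markers of hepatocytes moved with the members. Of 19 hepatocyte markers (such as Alb and Apoa1) 17 fell and 0 rose (median -0.85), and their summed level was 234863 to 246546 CPM on standard diet, 127055 to 149529 on the MASLD diet, 131909 to 191967 at 0.1x and 145039 to 169348 at 1x. Of the markers of other cells, 10 of 12 rose for lipid-associated macrophages (summed level 280.0 to 338 CPM on standard diet and 444 to 623 on the MASLD diet), 5 of 10 for Kupffer cells (251 to 548 and 376 to 476), 10 of 12 for stellate cells (290.4 to 316 and 433 to 540), 8 of 12 for endothelial cells (151 to 198 and 236 to 273) and 4 of 7 tested for cholangiocytes (16.7 to 27.1 and 44.3 to 156). For T and NK cells 0 of 11 rose and 1 fell (6.30 to 13.6 and 3.68 to 6.75). Spp1 was in the lists of both lipid-associated macrophages and cholangiocytes. It had 43.03, 139 and 35.7 CPM in MASLD samples 3, 4 and 5, most of the cholangiocyte sums of 51.2, 156 and 44.3 there. C6 made up 370 CPM of the highest Kupffer sum, in standard-diet sample 3. No marker of any of these lists was without counts in a group. Fewer hepatocytes and less RNA per hepatocyte cannot be told apart in bulk liver, and the part of cell composition in the members' changes was not tested.

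Agxt fell furthest of all members. Agxt (ENSMUSG00000026272, chromosome 1, 93135240 to 93145421, plus strand) encodes the peroxisomal alanine-glyoxylate aminotransferase, which keeps glyoxylate from being turned into oxalate. It stood at 374, 417 and 450.2 CPM in standard-diet samples 3, 4 and 5, at 37.1, 27.6 and 53.6 in MASLD samples 3, 4 and 5, at 54.3, 37.2 and 57.8 in 0.1x samples 1, 3 and 4, and at 57.7, 69.5 and 63.8 in 1x samples 2, 4 and 5, an order of samples kept below. All 9 samples on the MASLD diet lay far below the 3 on standard diet, and the 1x samples lay above every untreated MASLD sample. The log2 fold change on the diet was -3.39 ± 0.22 (adjusted p = 1.4e-07, 10.5-fold lower). Agxt2, the mitochondrial relative that also handles beta-amino acids and dimethylarginine, had 89.2, 115 and 129 CPM on standard diet, 115, 104 and 110.2 on the MASLD diet, 82.7, 112 and 93.5 at 0.1x and 80.05, 88.03 and 86.6 at 1x. Its untreated groups overlapped (-0.02 ± 0.14, adjusted p = 0.928). Per kb, Agxt was above Agxt2 in every standard-diet sample and below it in every MASLD sample, with a mean log2 ratio of 2.81 ± 0.14 and -0.63 ± 0.44 (standard deviation, n = 3). A two-sided exact permutation test of this ratio gave p = 0.1, the smallest that 3 against 3 samples allow, and over the 20 tests of this kind on 5 pairs such a p was 0.154 after Benjamini-Hochberg adjustment. The exons of Agxt2 overlap the predicted gene Gm21973 on the same strand, so its counts are uncertain.

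The cytosolic transaminases fell and the mitochondrial alanine transaminase did not pass. Got1 (ENSMUSG00000025190, chromosome 19, 43499752 to 43524605, minus strand), the cytosolic aspartate aminotransferase, had 425, 355 and 399 CPM on standard diet, 57.2, 43.4 and 77.5 on the MASLD diet, 70.01, 67.5 and 76.4 at 0.1x and 122, 100.1 and 111 at 1x. Its 4 groups came in steps: the MASLD and 0.1x samples overlapped at the bottom, the 1x samples lay above all of them, and the standard-diet samples were far higher. The change on the diet was -2.73 ± 0.18 (adjusted p = 1.3e-07, 6.62-fold lower). Gpt (ENSMUSG00000022546, chromosome 15, 76695716 to 76699686, plus strand), the cytosolic alanine aminotransferase measured in blood as a sign of liver injury, had 355, 387 and 413 CPM, 171, 156 and 177, 141, 169 and 180.0 and 214, 227 and 255 in the same order of groups. The MASLD and 0.1x samples overlapped, and the 1x samples lay between them and standard diet. Gpt fell by 2.29-fold on the diet (log2 -1.20 ± 0.12, adjusted p = 6.7e-06). Gpt2, its mitochondrial relative, had 499, 556 and 522 CPM on standard diet, 578, 543 and 552 on the MASLD diet, 407, 541 and 461 at 0.1x and 579, 548 and 537 at 1x. The groups on either diet overlapped (0.09 ± 0.12, adjusted p = 0.618). Per kb the order of the pair turned: Gpt stood at 131 and Gpt2 at 93.2 CPM per kb on standard diet, and at 57.2 and 98.9 on the MASLD diet. The log2 ratio of Gpt to Gpt2 was 0.49 ± 0.10 on standard diet, -0.79 ± 0.08 on the MASLD diet, -0.58 ± 0.16 at 0.1x and -0.32 ± 0.18 at 1x (standard deviation, n = 3). Its difference between the diets gave p = 0.1 in a two-sided exact permutation test, again the smallest possible.

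**Figure D2:**
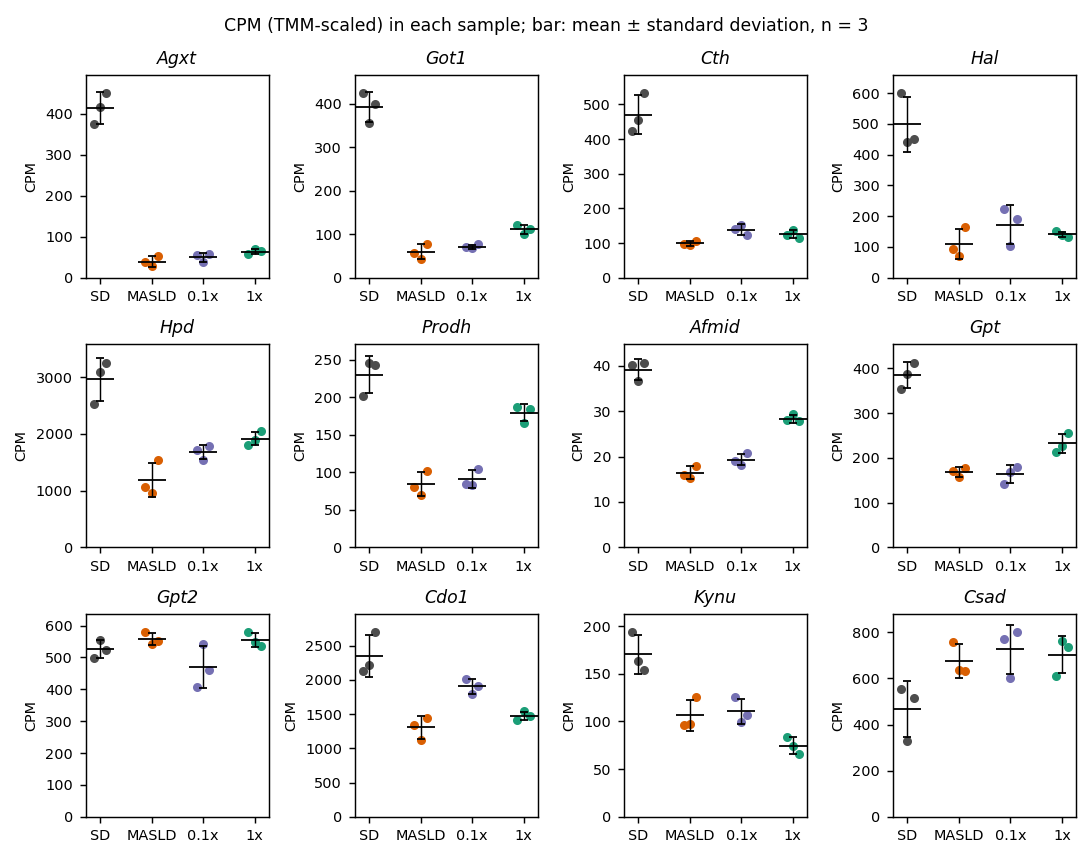
CPM in each of the 12 samples for 12 members on linear axes that start at 0, with one panel a gene, points for samples and a bar for the mean and standard deviation of each group of 3 (SD on the axis is standard diet). Agxt, Got1, Cth and Hal stay low in all 9 samples on the MASLD diet, Prodh, Afmid and Gpt are higher at 1x than at 0.1x, Gpt2 overlaps between the diets, and Csad is lowest on standard diet.

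All 4 enzymes of histidine breakdown fell on the MASLD diet. Hal (ENSMUSG00000020017, chromosome 10, 93488768 to 93519304, plus strand), histidase, which opens the pathway by making urocanate, had 601, 442 and 452 CPM on standard diet, 92.9, 71.8 and 166 on the MASLD diet, 224, 102 and 191 at 0.1x and 151, 139 and 133 at 1x. No sample on the MASLD diet reached the standard-diet range, and the 3 groups on that diet overlapped one another. The change on the diet was -2.18 ± 0.29 (adjusted p = 8.0e-05). Amdhd1, imidazolonepropionase, the third enzyme of the pathway, lies close to Hal on chromosome 10 and had 305, 237 and 233 CPM, 94.4, 89.4 and 117, 139, 91.5 and 138 and 84.4, 89.8 and 80.9. It fell by 2.57-fold on the diet (log2 -1.36 ± 0.17, adjusted p = 3.4e-05), and its mean was lowest at 1x. Uroc1, urocanate hydratase, went from 462 ± 30.9 to 278 ± 44.6 CPM (-0.73 ± 0.16, adjusted p = 0.00285). Ftcd, which hands the last fragment of histidine to folate, went from 359 ± 7.33 to 225 ± 33.6 CPM (-0.67 ± 0.12, adjusted p = 0.000703). The histidine enzymes had a median log2 fold change of -1.05, and all 4 remained lower than standard diet at 0.1x and at 1x, at medians of -0.96 and -1.12.

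The 3 tyrosine enzymes also fell together. Hpd, hydroxyphenylpyruvate dioxygenase, which makes homogentisate, had 2531, 3096 and 3261 CPM on standard diet, 1071, 955 and 1537 on the MASLD diet, 1712, 1539 and 1780.1 at 0.1x and 1811, 1896 and 2049.6 at 1x. The samples of each dose lay above every untreated MASLD sample and below every standard-diet sample. On the diet Hpd changed by -1.32 ± 0.17 (adjusted p = 5.2e-05). Fah, fumarylacetoacetate hydrolase, the last enzyme of the pathway, had 1012, 875 and 916 CPM, 499, 468 and 575, 740.5, 501 and 746 and 631, 689.8 and 790.3 in the 4 groups. Its change on the diet was -0.86 ± 0.16 (adjusted p = 0.000914), and the untreated groups did not overlap. Hgd, homogentisate dioxygenase between them, went from 867 ± 69.2 to 538 ± 62.99 CPM (-0.69 ± 0.12, adjusted p = 0.000595).

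Along the tryptophan pathway 5 of 6 members fell, and the entry enzyme did not pass. Tdo2, tryptophan dioxygenase, the liver's entry step to kynurenine, had 1776 ± 349 CPM on standard diet and 1550.1 ± 270.1 on the MASLD diet (-0.20 ± 0.19, adjusted p = 0.468), with overlapping samples. Afmid (ENSMUSG00000017718, chromosome 11, 117825924 to 117839908, plus strand), the formamidase that follows, had 40.1, 36.6 and 40.7 CPM on standard diet, 15.96, 15.4 and 17.99 on the MASLD diet, 19.1, 18.2 and 20.7 at 0.1x and 27.98, 29.4 and 27.7 at 1x. Its 4 groups did not overlap at all and came in the order MASLD, 0.1x, 1x and standard diet. The fall on the diet was -1.25 ± 0.11 (adjusted p = 1.4e-06). Afmid shares exon positions with Gm20708 on its own strand and with Tk1 on the other, so its counts are uncertain. Acmsd, which steers the pathway away from NAD synthesis, was the lowest of the members and had 15.5, 16.5 and 17.7 CPM, 4.28, 4.64 and 7.50, 8.21, 7.24 and 6.88 and 7.36, 4.39 and 5.10. Every sample on the MASLD diet lay below every standard-diet sample (-1.60 ± 0.21, adjusted p = 7.7e-05). Acmsd overlaps 2900009J06Rik on the opposite strand, so its counts are uncertain. Haao, hydroxyanthranilate dioxygenase, had 694, 745 and 851 CPM, 399, 346 and 446, 509, 534 and 550.0 and 437, 517 and 451, a change on the diet of -0.94 ± 0.13 (adjusted p = 7.7e-05). For Haao the 0.1x samples lay above all untreated MASLD samples, and the 1x samples overlapped with both. Kynu, kynureninase, had 194, 163 and 154 CPM, 96.6, 97.6 and 125, 125, 99.5 and 107 and 83.6, 74.7 and 65.8, and fell on the diet (-0.68 ± 0.14, adjusted p = 0.00235). Its 1x samples lay below those of every other group. Kmo, kynurenine monooxygenase, went from 308 ± 35.1 to 240.5 ± 17.9 CPM (-0.36 ± 0.12, adjusted p = 0.0311). That call did not hold when standard-diet sample 3 or 5, or else MASLD sample 3 or 4, was left out (adjusted p 0.0511 to 0.117). With library totals alone Kmo did not pass either, and its log2 fold change was 0.0017.

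Of the proline enzymes all 3 fell on the MASLD diet, and of these Prodh was higher again at the full dose. Prodh (ENSMUSG00000003526, chromosome 16, 18060357 to 18090203, minus strand), proline dehydrogenase of the mitochondrial inner membrane, had 202, 246 and 242 CPM on standard diet, 80.5, 69.9 and 102 on the MASLD diet, 83.96, 83.6 and 104 at 0.1x and 187, 166 and 185 at 1x. The MASLD and 0.1x samples overlapped, and the 1x samples lay above all 6 of them and below the standard-diet samples. It changed by -1.45 ± 0.15 on the diet (adjusted p = 6.7e-06). Prodh2, the hydroxyproline dehydrogenase, had 178, 244 and 259 CPM, 147, 121 and 145, 134, 159 and 165 and 149, 168 and 170.2. The fall of Prodh2 was -0.72 ± 0.14 (adjusted p = 0.00179), and at 1x its samples stayed below standard diet. The log2 ratio of Prodh to Prodh2 per kb was -1.63 ± 0.14 on standard diet, -2.39 ± 0.20 on the MASLD diet, -2.42 ± 0.15 at 0.1x and -1.52 ± 0.17 at 1x (standard deviation, n = 3). The differences between the diets, between 1x and MASLD and between the doses each gave p = 0.1 in a two-sided exact permutation test, the smallest possible. Aldh4a1, which takes the product of proline dehydrogenase on to glutamate, went from 271 ± 17.1 to 179 ± 16.5 CPM (-0.60 ± 0.11, adjusted p = 0.00105). It overlaps Gm21969 on its own strand.

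Among the serine and glycine enzymes 3 of 5 fell. Sds, serine dehydratase, which makes pyruvate from serine, had 272, 323 and 291 CPM on standard diet, 99.8, 60.9 and 181 on the MASLD diet, 129, 144 and 166 at 0.1x and 178, 136 and 138 at 1x. Its untreated MASLD samples spread more widely than the treated ones, and all 9 lay below standard diet (-1.38 ± 0.27, adjusted p = 0.00177). Amt, the aminomethyltransferase (T protein) of the glycine cleavage system, had 56.6, 41.7 and 50.6 CPM, 34.3, 31.3 and 32.7, 40.6, 35.6 and 37.9 and 32.4, 37.6 and 31.1, and fell by 1.51-fold on the diet (log2 -0.60 ± 0.12, adjusted p = 0.00229). Shmt1, the cytosolic serine hydroxymethyltransferase, went from 180.0 ± 9.48 to 119.7 ± 12.5 CPM (-0.59 ± 0.13, adjusted p = 0.00297). The other glycine cleavage genes did not pass: Gldc, the decarboxylase (P protein), stood at 122 ± 8.61 and 96.2 ± 23.3 CPM (-0.35 ± 0.20, adjusted p = 0.21), and Gcsh, the lipoyl carrier (H protein), at 118 ± 9.40 and 94.01 ± 3.14 (-0.32 ± 0.15, adjusted p = 0.116). Gldc was lower than standard diet in both treated groups, at 66.8 ± 13.98 CPM at 0.1x (-0.87 ± 0.20, adjusted p = 0.00768) and 68.00 ± 17.98 at 1x (-0.85 ± 0.20, adjusted p = 0.00898), without passing against untreated MASLD in either. Sds overlaps Plbd2 and Shmt1 overlaps Smcr8 on the opposite strand, and how strand was used in counting is not stated in the labels.

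The branched-chain enzymes had the smallest median change of the classes (-0.38, 4 of 6 fell), and of the 3 members that are subunits of the branched-chain dehydrogenase complex Dbt passed. Bckdha and Bckdhb, the alpha and beta subunits of its E1 component, did not pass on the diet. Bckdha had 314, 348 and 389 CPM on standard diet, 306, 257 and 311 on the MASLD diet, 269, 307 and 364 at 0.1x and 307, 345 and 342 at 1x (-0.27 ± 0.13, adjusted p = 0.145). Bckdhb had 53.5, 61.6 and 63.8 CPM, 59.3, 52.3 and 57.4, 49.8, 61.8 and 56.2 and 46.9, 55.2 and 56.7 (-0.08 ± 0.12, adjusted p = 0.638). The log2 ratio of Bckdha to Bckdhb per kb was 2.48 ± 0.05 on standard diet, 2.29 ± 0.07 on the MASLD diet, 2.41 ± 0.20 at 0.1x and 2.58 ± 0.06 at 1x (standard deviation, n = 3). Its differences between the diets (-0.19) and between 1x and MASLD (0.28) gave p = 0.1 in two-sided exact permutation tests, the smallest possible. Dbt, the E2 component of the same complex, had 74.5, 69.3 and 68.3 CPM, 44.3, 37.5 and 48.2, 47.8, 56.3 and 42.2 and 62.7, 62.7 and 59.8. Its untreated groups did not overlap (-0.71 ± 0.12, adjusted p = 0.00063), and the 1x samples lay above all MASLD and 0.1x samples. Ivd, isovaleryl-CoA dehydrogenase of leucine breakdown, had 201, 218 and 222 CPM, 114, 93.99 and 139.9, 129.6, 120.2 and 135 and 165, 161 and 164, a change of -0.88 ± 0.13 (adjusted p = 0.000156). The 1x samples of Ivd were above all MASLD and 0.1x samples and below standard diet. Mccc1 and Mccc2, the subunits of methylcrotonoyl-CoA carboxylase, had a mean log2 ratio per kb of -2.05 ± 0.04 on standard diet, -1.97 ± 0.02 on the MASLD diet, -2.08 ± 0.05 at 0.1x and -1.97 ± 0.04 at 1x (standard deviation, n = 3). Two-sided exact permutation tests of that ratio gave p = 0.1 between the diets, between 0.1x and MASLD and between the doses, on differences of 0.08, -0.11 and 0.11, and p = 1 between 1x and MASLD. Mccc1 had 68.7, 66.4 and 65.5 CPM, 53.8, 45.6 and 59.03, 46.99, 48.3 and 51.96 and 49.7, 53.8 and 54.7 (-0.34 ± 0.11, adjusted p = 0.028). Mccc2 had 72.4, 69.02 and 71.6 CPM, 54.8, 45.4 and 58.6, 52.9, 51.3 and 55.6 and 49.8, 55.5 and 53.4 (-0.42 ± 0.11, adjusted p = 0.00878). These were the smallest falls of the called members beside Kmo. The call of Mccc1 did not hold without any 1 of the standard-diet samples or when MASLD sample 3 or 4 was left out (adjusted p 0.0581 to 0.145). With library totals alone Mccc1 did not pass either, and its log2 fold change was 0.0156. The call of Mccc2 did not hold without MASLD sample 4 (adjusted p = 0.0561). Mccc1 and Bckdha overlap genes on the opposite strand (Mccc1os and B3gnt8 among them).

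In sulfur amino acid breakdown Cth and Cdo1 fell and Csad was the only member to rise. Cth (ENSMUSG00000028179, chromosome 3, 157894248 to 157925077, minus strand), cystathionine gamma-lyase, which makes cysteine and hydrogen sulfide, had 422, 455 and 533 CPM on standard diet, 96.1, 94.02 and 106 on the MASLD diet, 141, 153 and 123 at 0.1x and 123, 137 and 114 at 1x. The untreated MASLD samples were the lowest, the samples of both doses lay just above them, and standard diet was far higher. The change on the diet was -2.25 ± 0.13 (adjusted p = 5.6e-08, 4.76-fold lower), the smallest adjusted p of the members. Cdo1, which oxidises cysteine to its sulfinic acid, had 2129.7, 2221 and 2696 CPM, 1338, 1126 and 1447, 2013, 1785 and 1909.7 and 1417, 1537 and 1474 (-0.85 ± 0.13 on the diet, adjusted p = 0.0003). Its 0.1x samples lay above every MASLD and every 1x sample. Csad (ENSMUSG00000023044, chromosome 15, 102176999 to 102204724, minus strand), cysteine sulfinic acid decarboxylase, which takes the product of Cdo1 on to taurine, had 556, 327 and 517 CPM on standard diet, 759, 636 and 633 on the MASLD diet, 773, 604 and 801 at 0.1x and 612, 764 and 735 at 1x. Standard-diet sample 4 was the lowest of the 12, and no sample on the MASLD diet lay below the highest on standard diet. Csad rose by 1.45-fold (log2 0.54 ± 0.18, adjusted p = 0.0377), but not without standard-diet sample 4 or 5 or any 1 of the MASLD samples (adjusted p from 0.0521 to 0.152), and it shares exon positions with Zfp740 on the opposite strand. Aass, which carries out the opening steps of lysine breakdown, had 282, 309 and 322 CPM, 155, 145 and 219.7, 165, 161 and 157 and 240.4, 214 and 247. It fell on the diet (-0.81 ± 0.14, adjusted p = 0.000651), and the 1x samples lay above the 0.1x samples.

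With Aza-TdC most members stayed below standard diet. At 0.1x 26 of 36 (72.2%) were lower than on standard diet (10.9% of all genes tested) and 1 was higher (9.85% of all genes), with a median log2 fold change of -0.60. At 1x 23 (63.9%) were lower (9.84% of all genes) and 1 was higher (9.91% of all genes), with a median of -0.50. Csad was the higher member in both, by 0.64 ± 0.18 (adjusted p = 0.0223) and 0.59 ± 0.18 (adjusted p = 0.0326), and did not pass without standard-diet sample 4, 0.1x sample 1 or 4, or 1x sample 4 or 5 (adjusted p from 0.0666 to 0.117). Of the 28 members that fell on the diet, 25 were still called lower at 0.1x, the others being Shmt1, Kmo and Cdo1. At 1x 22 were, the others being Shmt1, Kmo, Fah, Prodh, Dbt and Aass. Leaving out each library in turn gave 22 to 25 of all members lower than standard diet at 0.1x and 18 to 22 at 1x. At 1x the lower calls of Ivd and Mccc1 were lost in 6 of 6 such runs and that of Prodh2 in 5. At 0.1x those of Amt and Fah were lost in 4 of 6. The median level of the 28 against standard diet was 61.8% at 0.1x (12.03% to 87.4%) and 65.5% at 1x (15.4% to 87.3%), beside 55.3% without drug. The 28 were chosen for low values in the untreated MASLD samples, so some rise in any other group is built in. Agxt stood at 12.03% and 15.4%, Got1 at 18.1% and 28.3%, Cth at 29.6% and 26.5%, and Prodh at 39.3% and 77.9%. These comparisons share the standard-diet samples with the comparison of diets.

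Against untreated MASLD livers few members differed at the low dose. At 0.1x 3 of 36 members rose (8.33%) and 0 fell, beside 6.08% and 7.09% of all genes tested, and the median of the members was 0.16. The share that rose was near that of all genes, and at an unadjusted p under 0.05 in edgeR 9 were higher and 1 lower, beside 15% and 15.9% of all genes. DESeq2 called 5 higher and 0 lower, beside 9.8% and 9.08% of the genes to which it gave an adjusted p. Those that rose were Cdo1 (0.55 ± 0.13, adjusted p = 0.0198), Cth (0.49 ± 0.12, adjusted p = 0.0214) and Haao (0.42 ± 0.13, adjusted p = 0.0418), with no overlap between samples in any of them. In all, 9 members had every 0.1x sample above every MASLD sample and 1 had every one below, beside 16.8% and 18.7% of all genes. The means went from 1304 ± 163 to 1903 ± 114 CPM for Cdo1, from 98.7 ± 6.49 to 139 ± 14.8 for Cth and from 397 ± 50.4 to 531 ± 20.9 for Haao. Hpd (0.50 ± 0.17, adjusted p = 0.061) and Hal (0.64 ± 0.28, adjusted p = 0.137) did not pass, although both did in some other settings. Hpd passed in DESeq2, with upper-quartile factors, without a filter and without MASLD sample 5. Hal passed without a filter, without MASLD sample 5, without 0.1x sample 3, and without 0.1x sample 3 and 1x sample 2 together. None of the 3 calls held in every run without 1 library: Cdo1 was lost on leaving out MASLD sample 3, MASLD sample 4 or 0.1x sample 1 (adjusted p from 0.0527 to 0.0875), Cth without any 1 of the MASLD samples or 0.1x sample 1 or 3 (0.0504 to 0.0852), and Haao without any 1 of the 6 samples (0.0566 to 0.166). With a trend of each library with GC content and transcript length removed, 1 of the 3 (Haao) passed. That trend took 22.3% of the variance of 0.1x sample 3, 18.6% of 1x sample 2 and 12.1% of MASLD sample 5, and 0.307% to 9.60% of the others. Of the hepatocyte markers 4 of 19 rose at 0.1x and 0 fell (median 0.30, with 16 above 0 and 3 below). The part of both in these calls was not tested further.

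At the full dose 7 members rose against untreated MASLD. Of the 36, 7 rose (19.4%) and 0 fell, beside 1.49% and 1.62% of all genes tested, with a median of 0.15 over the members. At an unadjusted p under 0.05 in edgeR 12 were higher and 3 lower, beside 7.83% and 9.2% of all genes. DESeq2 called 9 higher and 1 lower, beside 2.84% and 2.84% of the genes to which it gave an adjusted p. Prodh rose most, from 84.2 ± 16.5 to 179 ± 11.4 CPM (2.13-fold, log2 1.09 ± 0.15, adjusted p = 0.00126). Next came Got1, from 59.4 ± 17.2 to 111 ± 10.9 CPM (0.90 ± 0.17, adjusted p = 0.0108), and Afmid, from 16.4 ± 1.38 to 28.4 ± 0.875 CPM (0.79 ± 0.10, adjusted p = 0.00126). The remaining calls were Hpd (0.69 ± 0.17, adjusted p = 0.038), Dbt (0.51 ± 0.12, adjusted p = 0.0362), Ivd (0.50 ± 0.13, adjusted p = 0.0493) and Gpt (0.47 ± 0.12, adjusted p = 0.0493). They include both cytosolic transaminases and 2 of the 6 branched-chain genes. In all 7 the 3 treated samples lay above the 3 untreated ones, as in 11 of the 36 members and 13.5% of all genes. Prodh and Afmid passed without each of the 6 libraries in turn. Got1 was lost on leaving out MASLD sample 3, MASLD sample 4 or 1x sample 2 (adjusted p from 0.0538 to 0.0639), while Hpd, Dbt and Ivd were lost without MASLD sample 3, MASLD sample 4 or any 1 of the 1x samples (0.0779 to 0.257), and Gpt without any 1 of the 6 (0.0738 to 0.235). Of the members that did not pass, Agxt differed by 0.69 ± 0.20 (adjusted p = 0.0834) and Kynu by -0.51 ± 0.14 (adjusted p = 0.0633), each with no overlap of samples. Kynu was 1 of 2 members with every 1x sample below every MASLD sample (14.3% of all genes). Of 19 hepatocyte markers 0 passed in either direction at 1x in edgeR (2 higher and 0 lower at an unadjusted p under 0.05). Their median was 0.22, with 15 above 0 and 4 below, beside 27 and 9 of the 36 members. Of 12 markers of lipid-associated macrophages 2 fell (median -1.03, with 11 below 0 and 1 above). For Kupffer cells 2 of 10 fell and 1 rose (median -0.78), for stellate cells 1 of 12 fell (-0.65) and for cholangiocytes 1 of 7 (-0.79). No endothelial marker (median 0.10) and no T and NK cell marker (-0.05) passed. The part of these markers in the members' rises was not tested.

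**Figure D3:**
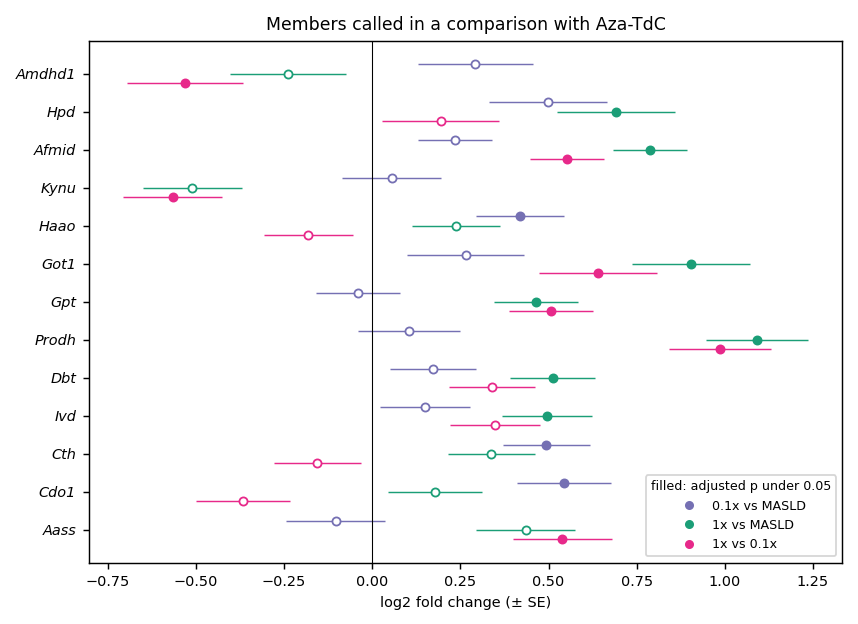
Log2 fold change with its standard error for the 13 members that passed in at least 1 of the comparisons 0.1x against MASLD, 1x against MASLD and 1x against 0.1x (3 samples a group, filled points passed at an adjusted p under 0.05). Prodh stands furthest right, at 1.09 for 1x against MASLD and 0.99 for 1x against 0.1x, and Kynu and Amdhd1 are lower at 1x than at 0.1x.

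The direct comparison of the doses also passed for 7 members. At 1x 5 of 36 were higher than at 0.1x (13.9%) and 2 were lower (5.56%), beside 7.13% and 5.86% of all genes tested, and the median of the members was 0.02. Higher were Prodh (0.99 ± 0.15, adjusted p = 0.003), Afmid (0.55 ± 0.10, adjusted p = 0.00814), Got1 (0.64 ± 0.17, adjusted p = 0.0243), Gpt (0.51 ± 0.12, adjusted p = 0.0175) and Aass (0.54 ± 0.14, adjusted p = 0.0249). Lower were Kynu (-0.57 ± 0.14, adjusted p = 0.0207) and Amdhd1 (-0.53 ± 0.16, adjusted p = 0.0459). Of the other members called at 1x against MASLD, Hpd (0.19 ± 0.17, adjusted p = 0.464), Dbt (0.34 ± 0.12, adjusted p = 0.0765) and Ivd (0.35 ± 0.13, adjusted p = 0.0821) did not pass between the doses. Cdo1, called against MASLD at 0.1x, differed between the doses by -0.37 ± 0.13 (adjusted p = 0.0793), which passed in DESeq2 but not in edgeR, with all 0.1x samples above all 1x samples. Prodh and Afmid passed without each library in turn. The others did not in some runs: Got1 without 0.1x sample 1 or 3 or 1x sample 2 or 5 (adjusted p from 0.0576 to 0.121), Gpt without 0.1x sample 1 or 1x sample 2 or 5 (0.0525 to 0.0680), Aass without 0.1x sample 1 or 4 or 1x sample 2 or 5 (0.0540 to 0.104), Kynu without 0.1x sample 1 or 1x sample 2 or 5 (0.0531 to 0.0823), and Amdhd1 without 0.1x sample 1 or 4 or any 1 of the 1x samples (0.0667 to 0.149). Without both 0.1x sample 3 and 1x sample 2, whose counts followed GC content and length most strongly in their groups, Prodh alone remained higher while Kynu and Amdhd1 remained lower, and 260 genes passed in place of 1802. With the trend removed, Kynu and Amdhd1 did not pass and the 5 higher members did. Markers of other cells also differed between the doses: 5 of 10 Kupffer markers were lower at 1x and 0 higher (median -0.80, summed level 405 to 606 CPM at 0.1x and 285 to 383 at 1x), and 1 of 12 markers of lipid-associated macrophages was lower (median -0.65, with 11 of 12 below 0, summed level 402 to 548 and 372 to 461). Of 19 hepatocyte markers 1 was higher and 1 lower (median 0.01). Their part in the members' differences was not tested. The comparisons with MASLD share its 3 samples, and the comparison of the doses shares samples with both.

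Within the untreated MASLD group most members came in the same order of samples. MASLD sample 4 was the lowest of the 3 in 32 of 36 members, beside 33.7% of all genes tested, and MASLD sample 5 the highest in 29 of 36, beside 34.8% of all genes. The mean log2 CPM of the members was 7.11, 6.92 and 7.34 in MASLD samples 3, 4 and 5, against 7.99 to 8.08 on standard diet, 7.23 to 7.35 at 0.1x and 7.33 to 7.36 at 1x. The 1x samples lay closest together, and MASLD sample 5 reached their range. The hepatocyte markers gave 11.76, 11.61 and 11.82 on the same scale in these samples, and the summed level of the lipid-associated macrophage markers was 494, 623 and 444 CPM, highest in the sample where the members were lowest. No library on standard diet or with drug was lowest in more than 20 of 36 members.

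**Figure D4:**
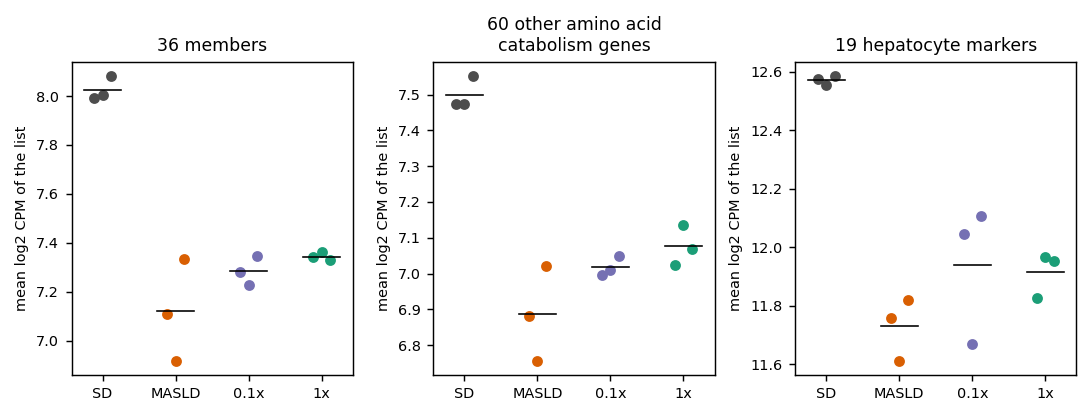
Mean log2 CPM of the 36 members, of 60 other amino acid catabolism genes and of 19 hepatocyte markers in each of the 12 samples, with a line at the mean of each group of 3 and axes that do not start at 0. Members lie at 7.99 to 8.08 on standard diet (SD on the axis) and at 6.92 to 7.36 in all other samples, with the widest spread among the untreated MASLD samples.

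Other genes of amino acid breakdown were counted from a list of 64, of which 60 were tested. On the MASLD diet 41 fell (68.3%) and 1 rose (1.67%), beside 13.9% and 15.6% of all genes tested, with a median of -0.57 over the 60. Gnmt, which uses up methyl groups of S-adenosylmethionine, went from 2271 ± 337 to 365 ± 75.1 CPM (-2.64 ± 0.18, adjusted p = 2.4e-07). Gls2, the liver glutaminase, fell by 5.11-fold (-2.35 ± 0.19, adjusted p = 9.9e-07), and Pipox, which oxidises pipecolate and sarcosine, by 2.50-fold (-1.32 ± 0.11, adjusted p = 1.5e-06). The gene that rose was Bckdk, the kinase that switches off the branched-chain dehydrogenase, whose samples went from 10.5, 8.42 and 9.80 to 16.5, 15.00 and 13.7 CPM (0.65 ± 0.12, adjusted p = 0.00119). It stayed above standard diet at 0.1x (0.80 ± 0.12, adjusted p = 0.000425) and at 1x (0.73 ± 0.12, adjusted p = 0.000842). Against standard diet 31 of the 60 were lower at 0.1x (51.7%) and 2 higher (3.33%), beside 10.9% and 9.85% of all genes. At 1x 25 were lower (41.7%) and 1 higher (1.67%), beside 9.84% and 9.91% of all genes. Against untreated MASLD, 5 rose (8.33%) and 1 fell (1.67%) at 0.1x, beside 6.08% and 7.09% of all genes, so the share that rose was near that of all genes. At 1x 7 rose (11.7%) and 1 fell (1.67%), beside 1.49% and 1.62% of all genes. Kyat1, a kynurenine aminotransferase, rose at both doses (0.66 ± 0.15, adjusted p = 0.0145, and 0.89 ± 0.15, adjusted p = 0.00601), though not without MASLD sample 3 or 4 at 0.1x (adjusted p 0.0567 and 0.0704) or MASLD sample 4 at 1x (0.0509). Tat, tyrosine aminotransferase, the step before Hpd, had 314, 314 and 513 CPM in the untreated MASLD samples and 2205, 774 and 1001 at 1x. Its 1x sample 2 stood far above the others, and the rise (1.80 ± 0.35, adjusted p = 0.015) did not pass when that sample, or MASLD sample 3 or 4, was left out (adjusted p 0.0620 to 0.104). Between the doses 3 were higher at 1x (5%) and 5 lower (8.33%), shares near the 7.13% and 5.86% of all genes. Among the higher was Dhtkd1 of lysine breakdown (0.87 ± 0.12, adjusted p = 0.00214), with 14.7 ± 1.04 CPM at 0.1x and 26.9 ± 0.586 at 1x. Among the lower was Ethe1, an enzyme of the sulfide oxidation pathway (-0.77 ± 0.17, adjusted p = 0.0131). Ethe1 did not pass without 1x sample 2 (adjusted p = 0.0777).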

How the data were processed

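RNA-seq covered 12 mouse liver samples in 4 groups of 3, assigned from the labels on diet and treatment. The labels' protocols describe a stranded library of polyadenylated RNA read in pairs of 150 bases. Per the submitters' processing notes, reads were aligned with STAR 2.7.3a to mm10. How reads were counted, with which strand setting and annotation, is not stated in the labels. The authors deposited raw counts per gene for 55471 IDs, and 0 count columns lay outside the samples. For 1 sample of the 1x group the title gives number 5 and the library name 8, and the title was used.

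Symbols, positions and exon lengths came from GENCODE vM21, which matched 55230 IDs. In R 4.3.3 with edgeR 4.0.16, filterByExpr by group removed genes of low count, TMM scaled the libraries, and the 12 samples entered 1 quasi-likelihood fit. Standard errors were derived from each log2 fold change and its F statistic (size over root F). P-values were adjusted by Benjamini-Hochberg over 13866 genes. Depth was 30213048 to 41852606 counts per library. Replicate libraries differed beyond sampling noise (chi-square per degree of freedom from 16.4 to 113). The fits were tested on simulated counts. Per-kb values divide CPM by the union of a gene's exons. Promoters are RefSeq windows, and proteins of Gpt and Gpt2, planned to be shown, were not used here.

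The members and gene lists were chosen with earlier results of these data known. Values in every sample are given for the 2 members of each class with the largest called change on the diet, for those called with drug and for 5 pairs of related members. DESeq2 1.42.0 was run as an alternative, as were factors by RLE and by upper quartile, 2 other filters, fits of only the groups compared, replicate blocks, removal of a GC and length trend, leaving out libraries and, chosen after seeing the data, library totals alone. Genes named from the other list come from the up to 3 per direction and comparison with the smallest adjusted p, and not all of those are named. Of the 20 hepatocyte marker symbols listed, Trf and Tf stand for the same gene, which left 19 markers.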

Additional observations from a re-analysis of the deposited data

How the results depend on the processing

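Of the 29 members called on the diet, 20 passed in the same direction in each of 17 other settings, and 9 did not in at least 1. Of the 3 called at 0.1x and the 7 called at 1x against MASLD, and of the 7 called between the doses, 0 passed in every setting; of those called against standard diet, 13 of 27 at 0.1x and 6 of 24 at 1x did. The log2 fold changes of Kmo (0.0017) and Mccc1 (0.0156) turned in sign on the diet with library totals alone. With that scaling, members higher came to 2 on the diet, 1 at 0.1x and 4 at 1x against MASLD and 2 at 1x against standard diet; members lower came to 1 at 0.1x against MASLD, 1 between the doses, 17 at 0.1x and 11 at 1x against standard diet, where 4634 genes passed in place of 2739. The labels state no pairing by replicate number. In 12 pairs of the same number, deviations from group means correlated at -0.21 to 0.08, with 0 above 0.1. Pairs of unlike number ran from -0.18 to 0.22. With 3 samples a group, such correlations cannot settle whether the numbers mark a pairing or a batch. A replicate block by title number left 0 members higher on the diet, 0 at 0.1x and 1 at 1x against MASLD, 0 higher and 0 lower between the doses, and 0 higher at 0.1x and 0 at 1x against standard diet, with 17 lower at 0.1x; genes passing were 33 at 0.1x and 53 at 1x against MASLD, 0 between the doses, 1379 at 0.1x and 1122 at 1x against standard diet (in place of 1826, 431, 1802, 2872 and 2739). The replicate block by library name left 0 members higher in each of the 6 comparisons, 0 lower between the doses, and 14 lower at 0.1x and 6 at 1x against standard diet, with 110, 26, 1, 1160 and 249 genes passing in the same order. DESeq2 gave 5 members higher at 0.1x and 1 lower at 1x against MASLD, with 800 genes at 1x. With the GC and length trend removed, 1 member was higher at 0.1x and 0 were lower between the doses, with 495 and 656 genes. Without a filter 1 member was lower at 0.1x and 2 at 1x against MASLD, with 1131 genes at 1x. Without 0.1x sample 3 and 1x sample 2 together, 1 was lower at 0.1x and 1 at 1x against MASLD and 1 higher between the doses, with 260 genes. Upper-quartile factors gave 1 lower at 1x against MASLD. Fits of only the groups compared gave 2 lower at 1x against MASLD (1013 genes), 1 lower between the doses (744 genes), and 0 higher at 0.1x (1660 genes) and 0 at 1x against standard diet. Leaving out each library in turn gave 0 to 1 members higher and 25 to 28 lower on the diet (2654 genes without MASLD sample 4 to 3850), 0 to 4 higher at 0.1x against MASLD (382 without MASLD sample 4 to 1599 genes), 2 to 9 higher at 1x against MASLD (83 without MASLD sample 4 to 396 genes), 2 to 5 higher and 0 to 2 lower between the doses (210 without 1x sample 2 to 1844 genes), 0 to 1 higher at 0.1x (1790 without standard-diet sample 4 to 2619 genes) and 0 to 1 higher at 1x against standard diet (1699 without 1x sample 2 to 2559 genes). The count over all genes moved by over 1.5 times without MASLD sample 4 on the diet, without MASLD sample 3, 4 or 5 or 0.1x sample 1 at 0.1x (594, 382, 461 and 1145 genes) and without MASLD sample 3 or 4 or 1x sample 2, 4 or 5 at 1x against MASLD (102, 83, 148, 154 and 216 genes). Between the doses it did so without 0.1x sample 1 or 1x sample 2 or 5 (1135, 210 and 782 genes), and against standard diet without standard-diet sample 4 at 0.1x (1790 genes) and without standard-diet sample 5 or 1x sample 2 at 1x (1726 and 1699 genes). The causes of these changes were not tested.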
